A study of Rattus norvegicus with 20 samples.

Results

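The miR-34 family comprises the microRNAs (miRNAs) made from the Mir34a, Mir34b and Mir34c hairpins, and 5 of its mature arms (rno-miR-34a-5p, rno-miR-34b-5p, rno-miR-34b-3p, rno-miR-34c-5p and rno-miR-34c-3p) were followed here, out of 719 rat miRNAs on the arrays. They were found on the arrays by name, though the family was chosen with earlier results of these data known, and were read by 12 probes that filled 100 spots on each array. The companion arm rno-miR-34a-3p was read as well. The arrays measured miRNAs in total RNA of whole kidneys from male Wistar rats of 80 to 100 g. Rats received intraperitoneal aristolochic acid I (AAI), a nephrotoxic and DNA-damaging compound of Aristolochia plants, at 40 mg per kg, and kidneys were taken on day 2, day 4 or day 6. The labels do not say how often the dose was repeated. Other rats received only the vehicle (PEG400 in water), with kidneys taken on day 6. Each of the 4 groups held 5 kidneys with 1 array each, 20 arrays in all, and vehicle kidneys of day 2 and day 4 were not analysed here, so that time and treatment cannot be told apart for those days. Nothing in the labels says whether kidneys of a group came from separate rats, so p-values measure the spread between these samples.

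miRNAs of this family pair with target messenger RNAs through the seed, bases 2 to 8 of the mature strand, and lower their stability and translation. In mouse and human cells the transcription factor p53 activates both loci after DNA damage, and the 5p arms are known to repress cell cycle and survival genes such as those encoding cyclin-dependent kinases, cyclins, MET and BCL2. AAI is reduced in the body to species that form DNA adducts, and tubule cells of the kidney cortex are its main target.

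The mature sequences are shown because the 5p arms share their seed, in capitals, while the 3p arms fall into 2 other seed groups. Sequences are from RefSeq (GRCr8 build), in which all 6 arms were matched by name.
miR-34a-5p: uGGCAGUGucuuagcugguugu
miR-34b-5p: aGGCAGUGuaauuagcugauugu
miR-34c-5p: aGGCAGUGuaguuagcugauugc
miR-449a-5p: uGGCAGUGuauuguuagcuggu
miR-449c-5p: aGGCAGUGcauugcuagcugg
miR-34b-3p: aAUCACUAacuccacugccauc
miR-34c-3p: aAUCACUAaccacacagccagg
miR-34a-3p: aAUCAGCAaguauacugcccua
miR-34b-5p and miR-34c-5p were identical at 21 of 23 positions. Counted from the 5′ end, with the miR-34b-5p base first, they differed by A11G and U23C. miR-34a-5p matched each of them at 11 of its 22 positions when compared without gaps. With 1 gap position allowed, 19 of its bases aligned to identical bases of miR-34b-5p and 18 to those of miR-34c-5p.

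The hairpins are shown to place the arms, which are in capitals. Mir34a lies on chromosome 5 (plus strand) within a long non-coding RNA gene, LOC103692514. Mir34b and Mir34c lie on chromosome 8 (minus strand) with 441 bases between them, both inside the span of the protein-coding gene Hoatz and next to Btg4.
Mir34a: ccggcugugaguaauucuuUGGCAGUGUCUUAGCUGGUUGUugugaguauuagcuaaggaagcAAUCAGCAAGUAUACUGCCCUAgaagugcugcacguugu
Mir34b: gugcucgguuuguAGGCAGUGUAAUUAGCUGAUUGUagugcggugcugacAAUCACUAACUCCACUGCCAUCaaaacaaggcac
Mir34c: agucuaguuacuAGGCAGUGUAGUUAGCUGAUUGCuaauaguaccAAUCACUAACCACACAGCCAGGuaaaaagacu

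The longer probe of each 5p arm is shown because the miR-34b-5p and miR-34c-5p probes must separate near-identical targets. Capitals mark the bases that differ between those 2 probes.
miR-34a-5p probe: acaaccagctaagacactgc
miR-34b-5p probe: AcaatcagctaaTtacactgcc
miR-34c-5p probe: GcaatcagctaaCtacactg
Over the 20 positions they share, counted from the probe's 5′ end with the miR-34b-5p base first, these 2 probes differed by A1G and T13C. Each printed probe was an exact complement of its own mature arm. Cross-hybridisation between miR-34b-5p and miR-34c-5p was not tested, so their values may not be separate measurements. Binding of miR-34a-5p to the probes of these 2 arms was not tested either, so their values may hold a part of its signal. Per the file headers, the longer probes of miR-34a-5p, miR-34b-5p and miR-34c-5p map to chr5:167187918-167187937, chr8:54422584-54422605 and chr8:54422067-54422086 of the rn4 build.

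The values below are log2 levels: the summed signal of a miRNA's probes, divided by the 75th percentile signal of its array, so that 1 unit is a doubling. Levels of different miRNAs come from different probes and were not ranked against each other. A miRNA was called changed at a Benjamini-Hochberg adjusted p under 0.05 in limma, over 262 tested miRNAs. The number of detected miRNAs per array was 250 to 328, with the highest value on AAI day 4 array 2, which stood apart from the 269 to 284 of the rest of its group. The 20 arrays sat on 3 slides: slide 1 held all day 6 arrays and day 4 arrays 3 to 5, slide 2 held all day 2 arrays, day 4 arrays 1 and 2 and vehicle array 5, and slide 3 held vehicle arrays 1 to 4. No slide held both day 6 and vehicle kidneys.

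The 5p arms of both loci, rno-miR-34a-5p, rno-miR-34b-5p and rno-miR-34c-5p, were detected on all 20 arrays and were higher in kidneys at AAI day 6 than in vehicle kidneys. miR-34a-5p rose 7.57-fold, miR-34c-5p 2.43-fold and miR-34b-5p 2.15-fold. All 3 were called, against a background of 7.25% of tested miRNAs called higher in that comparison. At AAI day 2 and day 4 none of the 3 passed the threshold against vehicle, where 1.53% and 2.29% of all tested miRNAs were called higher. The 3p arms were at or below background on most arrays.

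miR-34a-5p, the arm made from the chromosome 5 locus, had log2 levels of 0.82, -0.17, 0.43, -0.53 and 1.46 in the AAI day 6 kidneys, against -2.78, -2.59, -2.36, -2.47 and -2.40 in the vehicle kidneys. Every day 6 kidney lay above every vehicle kidney, an order that 4.2% of all tested miRNAs showed. The group means were 0.40 ± 0.79 at day 6 and -2.52 ± 0.17 in vehicle (SD, n = 5 each). The log2 change was 2.92 ± 0.37 (SE, 95% interval of the fold 4.40 to 13.0, limma adjusted p = 1.60e-05), the largest increase among the 262 tested miRNAs in this comparison.

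At AAI day 2 the levels of miR-34a-5p were -2.46, -1.27, -1.92, -1.27 and -1.69, and at day 4 they were -2.52, -1.34, -1.82, -1.12 and -0.33. On each of these days 4 of 5 kidneys lay above all vehicle kidneys, and array 1 of each day lay within the vehicle range. The log2 change against vehicle was 0.80 ± 0.37 at day 2 (limma adjusted p = 0.427) and 1.09 ± 0.37 at day 4 (adjusted p = 0.110). Without AAI day 4 array 1 the day 4 change was 1.36 and its limma adjusted p 0.0425. The SD of the miR-34a-5p levels was 0.50 at day 2, 0.81 at day 4 and 0.79 at day 6, against 0.17 in vehicle (n = 5 each).

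miR-34b-5p, from the chromosome 8 cluster, had log2 levels of -2.82, -3.64, -3.71, -4.20 and -2.70 at AAI day 6, against -4.66, -4.59, -4.52, -4.41 and -4.40 in vehicle kidneys. The day 6 group lay above the vehicle group without overlap, as for 4.2% of all tested miRNAs. Its log2 change was 1.104 ± 0.28 (95% interval of the fold 1.44 to 3.21, limma adjusted p = 0.00656), the 13th largest increase of 262.

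miR-34c-5p, from the neighbouring hairpin, had log2 levels of -2.41, -3.68, -3.49, -4.08 and -2.65 at AAI day 6, against -4.82, -4.54, -4.58, -4.40 and -4.37 in vehicle kidneys. These groups did not overlap either (4.2% of all tested miRNAs). Its log2 change was 1.28 ± 0.28 (95% interval of the fold 1.61 to 3.65, limma adjusted p = 0.00285), the 11th largest increase. As in the miR-34a-5p values, day 6 arrays 1 and 5 were the highest of their group for both chromosome 8 arms, and array 4 was the lowest for all 3 arms.

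Before day 6 the mean levels of the chromosome 8 arms differed little from vehicle, while single kidneys of day 4 lay on both sides of it. At day 4, 3 of 5 kidneys were above and 1 below all vehicle kidneys, for miR-34b-5p and for miR-34c-5p alike. miR-34b-5p spanned -4.64 to -4.16 at day 2 and -5.39 to -3.77 at day 4, against -4.66 to -4.40 in vehicle, and miR-34c-5p spanned -4.56 to -4.09 and -4.98 to -3.62, against -4.82 to -4.37. The log2 changes against vehicle were 0.12 and 0.13 for miR-34b-5p and 0.17 and 0.23 for miR-34c-5p at day 2 and day 4, all with a limma adjusted p of 0.657 or higher. With standard errors of 0.28, 95% intervals of these changes ran from -0.46 to 0.82. Under several other settings these near-zero values turned negative, as the closing section lists.

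**Figure D1:**
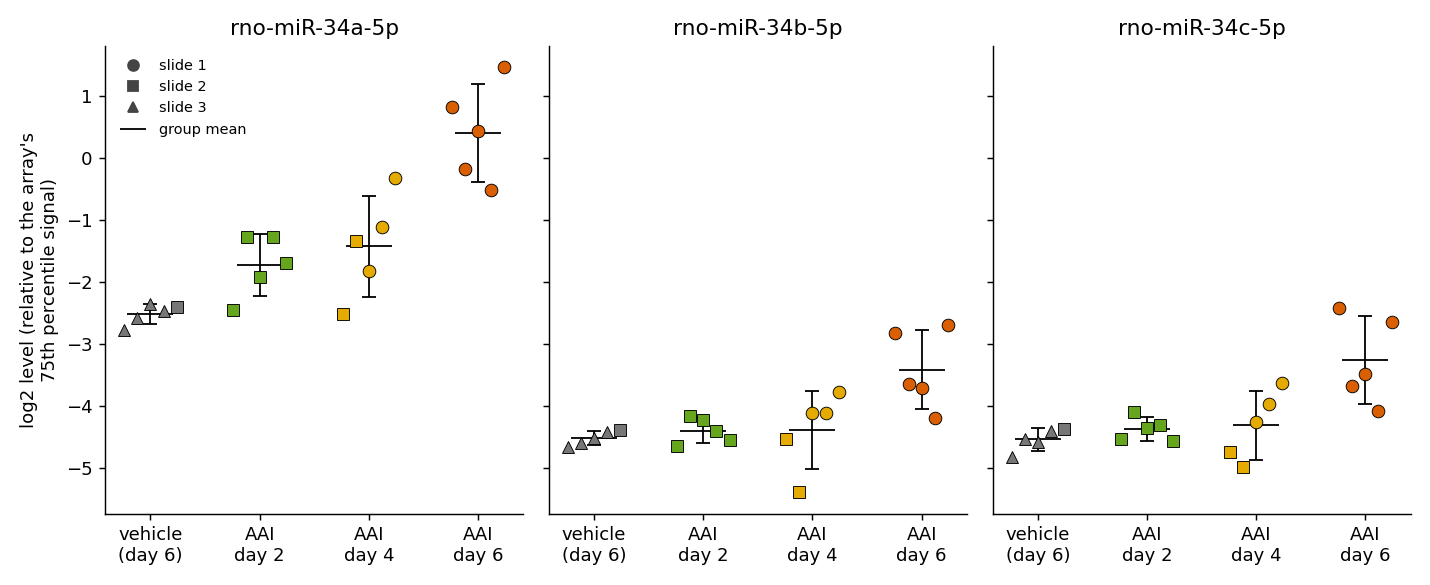
Log2 level of each miR-34 5p arm (y axis, relative to the array's 75th percentile signal) in each kidney by group (x axis). Points are arrays, symbols their slide, and bars the group mean ± SD of 5 kidneys. All AAI day 6 points lie above all vehicle points for each arm, as for 4.2% of all tested miRNAs. Every day 6 point is on slide 1, while the vehicle points are on slides 2 and 3.

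The comparisons between AAI days asked when the family moved. From day 2 to day 6 all 3 arms were called higher (background 3.44%), with log2 changes of 2.12 ± 0.37 for miR-34a-5p (limma adjusted p = 0.00263), 1.11 ± 0.28 for miR-34c-5p (adjusted p = 0.0236) and 0.99 ± 0.28 for miR-34b-5p (adjusted p = 0.0274). Every day 6 kidney lay above every day 2 kidney for miR-34a-5p and miR-34c-5p, which 2.67% of tested miRNAs showed, and 4 of 5 did so for miR-34b-5p. Leaving out day 6 array 5 ended the calls of miR-34c-5p (limma adjusted p = 0.0592) and miR-34b-5p (0.0727), and miR-34b-5p also lost its call without day 6 array 1 or day 2 array 1, 4 or 5 (0.0510 to 0.0723).

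Between day 6 and day 4, miR-34a-5p was the only miRNA of the 262 called higher (0.382%), by 1.83 ± 0.37 on the log2 scale (limma adjusted p = 0.0145). miR-34c-5p and miR-34b-5p had the next largest increases, 1.05 ± 0.28 (adjusted p = 0.0835) and 0.97 ± 0.28 (adjusted p = 0.107), and did not pass. The miR-34a-5p call was lost when day 4 array 1 or 3, or day 6 array 1 or 5, was left out (limma adjusted p 0.0526 to 0.0601), and all 3 arms were called when day 4 array 5 or day 6 array 4 was left out. Between day 4 and day 2 no miRNA was called (0%) in limma, although 20 of 262 had an unadjusted p under 0.05, and the log2 changes of the 3 arms were 0.30, 0.01 and 0.06 for miR-34a-5p, miR-34b-5p and miR-34c-5p.

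Slide moved with these results. With slide as a fixed block, which links day 6 to vehicle only through day 4 kidneys on both slides and vehicle array 5, the log2 change at day 6 against vehicle was 1.96 ± 0.83 for miR-34a-5p (limma adjusted p = 0.0761). It was 0.19 ± 0.56 for miR-34c-5p (adjusted p = 0.795) and 0.02 ± 0.54 for miR-34b-5p (adjusted p = 0.975), so that none was called. Without AAI day 4 array 2 the same block gave 1.37, 0.31 and 0.45 for miR-34a-5p, miR-34c-5p and miR-34b-5p. With slide as a random block miR-34a-5p remained called (2.57 ± 0.55, limma adjusted p = 0.00538), while miR-34c-5p (0.88, adjusted p = 0.109) and miR-34b-5p (0.70, adjusted p = 0.181) were not.

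Within slide 1, the 5 day 6 kidneys averaged 0.40 and the 3 day 4 kidneys -1.09 for miR-34a-5p, a log2 difference of 1.49 ± 0.49 (limma adjusted p = 0.202 within that slide). Between day 6 and day 2, which no slide shared, the fixed block gave 1.29 for miR-34a-5p (limma adjusted p = 0.119), 0.20 for miR-34c-5p and 0.02 for miR-34b-5p. The within-slide 1 differences were 0.69 ± 0.38 for miR-34c-5p and 0.59 ± 0.34 for miR-34b-5p. Day 4 kidneys themselves differed between slides, with miR-34b-5p at -4.12 to -3.77 on slide 1 and at -4.53 and -5.39 on slide 2. On slide 2 the single vehicle kidney had a miR-34a-5p level of -2.40, against which 4 of the 5 day 2 kidneys were higher. The part of slide in the day 6 values of the chromosome 8 arms cannot be told apart from the part of AAI beyond these estimates.

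**Figure D2:**
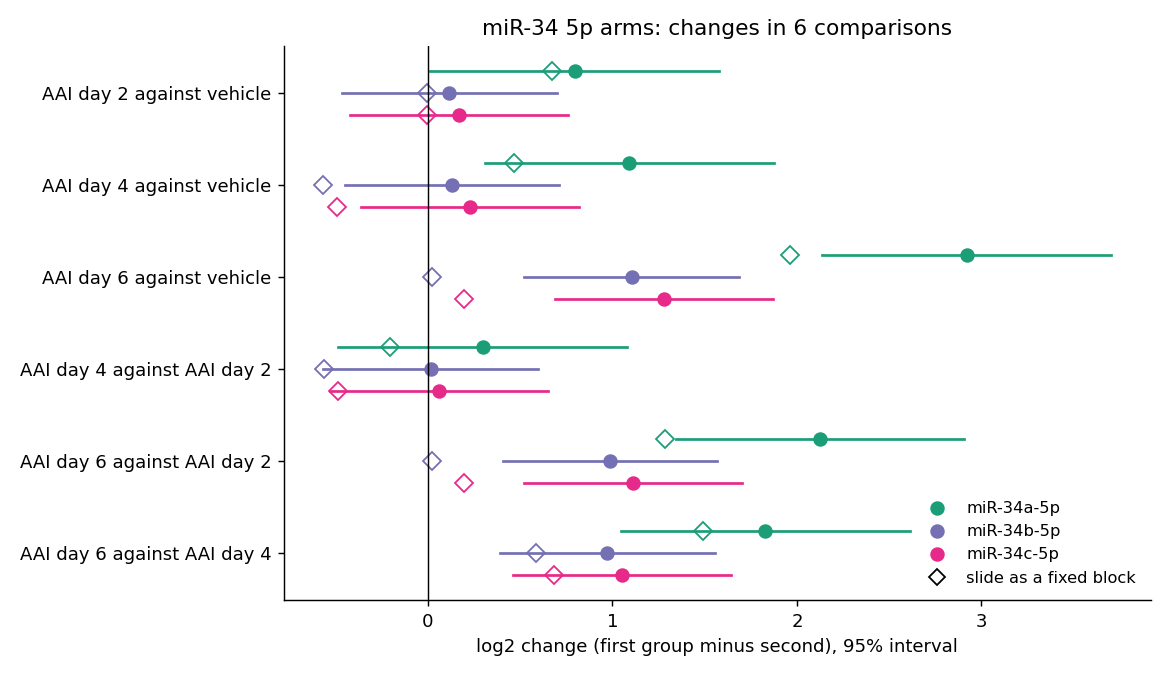
Log2 changes of the 3 miR-34 5p arms (x axis) in each of 6 comparisons (y axis), with 95% intervals. Filled circles are the limma estimates over 20 arrays, and open diamonds the estimates with slide as a fixed block, which for day 6 against vehicle are 1.96, 0.02 and 0.19 for miR-34a-5p, miR-34b-5p and miR-34c-5p.

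The chromosome 5 and chromosome 8 loci were compared within each array by taking miR-34a-5p minus miR-34c-5p on the log2 scale, in which the array's scale factor cancels. Only the change of this difference between groups carries meaning, since the probes differ. It was 3.23, 3.50, 3.92, 3.56 and 4.11 at AAI day 6, against 2.05, 1.95, 2.21, 1.93 and 1.97 in vehicle. The groups did not overlap, and the difference was wider by 1.64 at day 6 (exact permutation test, two-sided, p = 0.00794, the smallest that 252 splits allow, adjusted p = 0.0179 over 9 such tests). The fold change of the measured miR-34a-5p signal was thus 3.12 times that of the miR-34c-5p signal. In vehicle 28 of 100 miR-34c-5p spots were well above background, against all 100 of miR-34a-5p. Background left in a dim signal does not cancel within an array, and its part in this difference was not tested.

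The difference was also wider at AAI day 4, by 0.86 (5 of 5 kidneys above vehicle, exact permutation adjusted p = 0.0179), and at day 2, by 0.63 (4 of 5 kidneys, adjusted p = 0.0238). Against miR-34b-5p the results were alike, with miR-34a-5p minus miR-34b-5p wider by 1.82, 0.96 and 0.68 at day 6, day 4 and day 2 (exact permutation adjusted p = 0.0179, 0.0238 and 0.0179). The level of miR-34a-5p thus did not pass limma's threshold at day 2 or day 4, while its distance from its paralogs did pass the permutation test, with the p adjusted over 9 tests and not over 262. The pass at day 4 was lost with normexp background correction (exact permutation adjusted p = 0.0612 against both arms) and in the deposited series table (0.0857 against miR-34c-5p and 0.0536 against miR-34b-5p). In that table AAI day 4 array 2 stood at -2.52 for miR-34b-5p and -1.70 for miR-34c-5p. The lowest values in the rest of its group were 3.02 and 2.78, and the part of that array in the loss was not tested. At day 2 the pass was lost against miR-34c-5p in the series table (0.0918).

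By slide, miR-34a-5p minus miR-34c-5p averaged 3.66 in the 5 day 6 kidneys and 2.86 in the 3 day 4 kidneys of slide 1. On slide 2 it was 2.65 on average in the 5 day 2 kidneys and 2.93 in the 2 day 4 kidneys, against 1.97 in the vehicle kidney of that slide, and it was 2.03 on average in the 4 vehicle kidneys of slide 3. On slide 2, 5 of 5 day 2 and 2 of 2 day 4 kidneys were higher than that single vehicle kidney. Slide 1, which holds every day 6 kidney, holds no vehicle kidney, so that slide and AAI cannot be told apart there.

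Within the chromosome 8 cluster the shifts were small. miR-34b-5p minus miR-34c-5p averaged -0.15 ± 0.17 at day 6, -0.07 ± 0.25 at day 4 and -0.03 ± 0.10 at day 2, against 0.02 ± 0.09 in vehicle (SD, n = 5 each). None of these shifts passed (exact permutation adjusted p = 0.0816, 0.468 and 0.446), and the largest was -0.18.

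**Figure D3:**
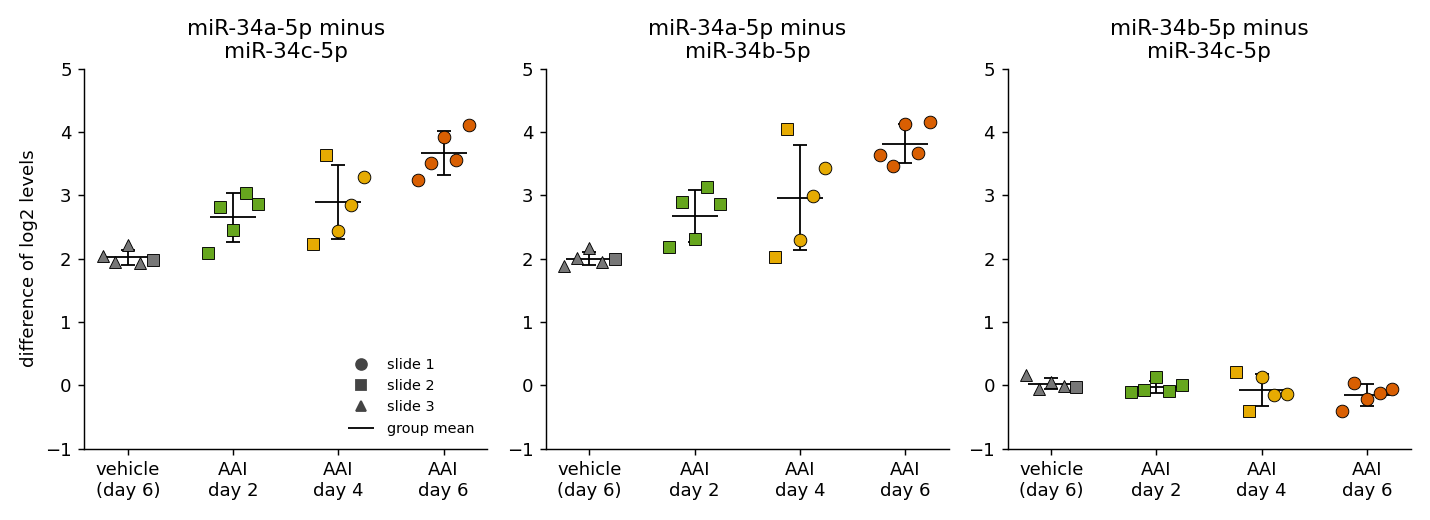
Differences of log2 levels within each array (y axis) between pairs of miR-34 5p arms, by group (x axis), with symbols for the slide and bars for the mean ± SD of 5 kidneys. miR-34a-5p minus either chromosome 8 arm is near 2 in every vehicle kidney and above 3 in every AAI day 6 kidney, while miR-34b-5p minus miR-34c-5p stays near 0 in all groups.

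Whether the arms move together from kidney to kidney was read from each kidney's deviation from its group mean, over 20 kidneys. miR-34b-5p and miR-34c-5p correlated with a Pearson r of 0.937 (permutation p within groups 2e-05, adjusted 6e-05 over 3 pairs) and a Spearman rho of 0.923 (p = 1e-05, the smallest that 100000 permutations give, adjusted 3e-05). miR-34a-5p and miR-34c-5p correlated with r = 0.774 (permutation p = 0.00375, adjusted 0.00562) and rho = 0.771 (p = 0.00183, adjusted 0.00274). miR-34a-5p and miR-34b-5p correlated with r = 0.629 (permutation p = 0.0392, adjusted 0.0392) and rho = 0.650 (p = 0.0154, adjusted 0.0154). Some miRNAs outside the family had a higher r with the chromosome 8 arms than miR-34a-5p had, as given further below.

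AAI day 6 arrays 1 and 5 lay farthest from the median level of the first arm in each pair. Without these 2, r was 0.907, 0.709 and 0.433 for the 3 pairs in that order. The relation of miR-34a-5p with miR-34b-5p (permutation p = 0.283) then missed the threshold. The 2 arrays were farthest by level and not by deviation from the group mean, which is what was correlated. For miR-34a-5p, day 4 arrays 1 and 5 (-2.52 and -0.33, group mean -1.43) deviated more than day 6 array 1 (0.82, group mean 0.40). Within slide 1, r was 0.965, 0.879 and 0.859 over 8 kidneys, and within slide 2 it was 0.785, 0.244 and -0.27 over 7 kidneys. AAI day 4 array 2, where miR-34a-5p was near its group mean and miR-34b-5p lowest of all kidneys (-5.39), lies on slide 2, and without it r over 19 kidneys was 0.955, 0.861 and 0.824. Slide 2 without that array leaves only the 5 day 2 kidneys, since day 4 array 1 then stands alone in its group there. Over these 5, too few for a test, r was 0.883, 0.714 and 0.602. The low slide 2 values thus go with the contrast between day 4 arrays 1 and 2 (miR-34a-5p -2.52 and -1.34, miR-34b-5p -4.53 and -5.39). Within that slide they cannot be assigned to 1 of these arrays. The points of a pair share an array and its scale factor, and without any scaling r was 0.958, 0.853 and 0.755. The correlations of miR-34a-5p changed with the background correction and the summary of probes. With miR-34c-5p r was 0.023 with normexp background correction, 0.104 with the software's total signal and 0.422 in the series table, and with miR-34b-5p it was -0.050, 0.087 and 0.335, none of them past the threshold. Normexp added an offset of 50 to each spot, while median vehicle sums were 16.6 for miR-34c-5p and 16.4 for miR-34b-5p. The software's total of miR-34b-5p equalled that of miR-34a-5p plus the brighter miR-34b-5p probe on 10 arrays. In the series table AAI day 4 array 2 stood at -1.70 for miR-34c-5p and -2.52 for miR-34b-5p. The part of these in the r values was not tested.

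**Figure D4:**
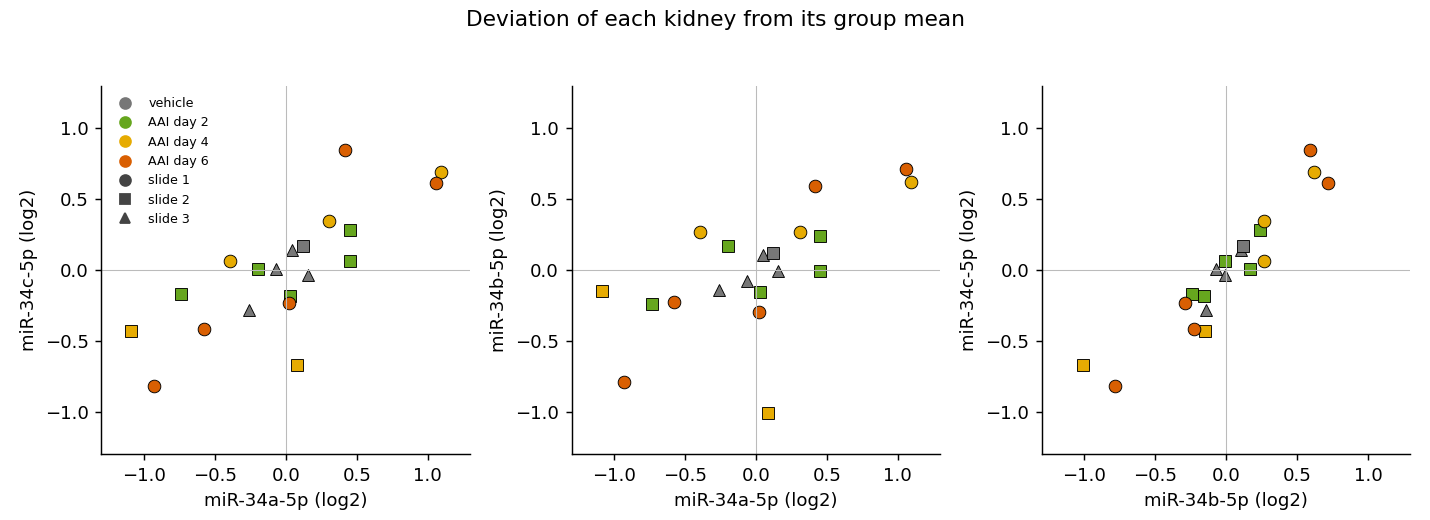
Deviation of each kidney from its group mean, in log2 units, for 3 pairs of miR-34 5p arms (one arm on each axis), coloured by group and with symbols for the slide. miR-34b-5p and miR-34c-5p lie close to a line (r = 0.937), and AAI day 4 array 2, a square near -1.0 on the miR-34b-5p axis, lies off the trend with miR-34a-5p.

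The 3p arms come from the opposite strand of each hairpin and usually accumulate less than the 5p arm. rno-miR-34b-3p had summed background-subtracted signals of 15.5, 6.47, 11.1, 9.79 and 12.9 at AAI day 6, against 2.15, 4.39, 4.20, 5.66 and 5.65 in vehicle kidneys. The software marked it as detected on day 6 arrays 1 and 5 and on no other array, and it was between 5.35 and 9.10 on the day 2 and day 4 arrays.

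miR-34a-3p had signals of 13.1, 2.91, 8.70, 4.17 and 16.7 at AAI day 6, against -0.05, -1.34, -1.34, -0.64 and -1.25 in vehicle, and was likewise detected on day 6 arrays 1 and 5. These are the day 6 kidneys with the highest levels of all 3 arms of the 5p strand. rno-miR-34c-3p, read by probes of 10 to 13 bases, had signals of 6.75, -5.87, 7.66, 7.48 and 2.89 at day 6, against -8.56, -2.08, -6.08, -3.35 and -9.07 in vehicle. It was marked as detected on day 6 array 1 and on day 4 array 2, where its signal was 15.3. Day 6 arrays 3 and 4 had higher signals than array 1 and no mark, and in each group 0 of 100 miR-34c-3p spots were well above background. Wherever a 3p arm was marked, the software's total signal was 23.5 to 195 times the sum of the arm's probe totals. The mark thus did not follow the probe signal alone, and the part of that total in it was not tested.

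No 3p arm was detected on all 5 arrays of a group, so none was among the 262 tested miRNAs, and no fold change is given. A wider set of 357 miRNAs detected on at least 1 array, of which 7% were called higher at day 6 against vehicle, takes in miR-34a-3p and miR-34b-3p only through the 2 day 6 arrays that detected them. Negative signals enter such a fit at the floor, so no p-value is given for the 3p arms. Many 3p signals lay within a few standard deviations of single negative-control spots, whose SD was 1.82 to 5.55 per array. The highest lay further out: 16.7 for miR-34a-3p on day 6 array 5 (SD 1.99) and 15.3 for miR-34c-3p on day 4 array 2 (SD 1.98). That SD is of single spots and not of summed probe means, so the 3p signals are read here only by their order. All 5 day 6 kidneys lay above all vehicle kidneys for miR-34a-3p and miR-34b-3p, and 4 of 5 did so for miR-34c-3p. How many of the other dim miRNAs on the array showed that order was not counted, so it is not read as particular to these arms.

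**Figure D5:**
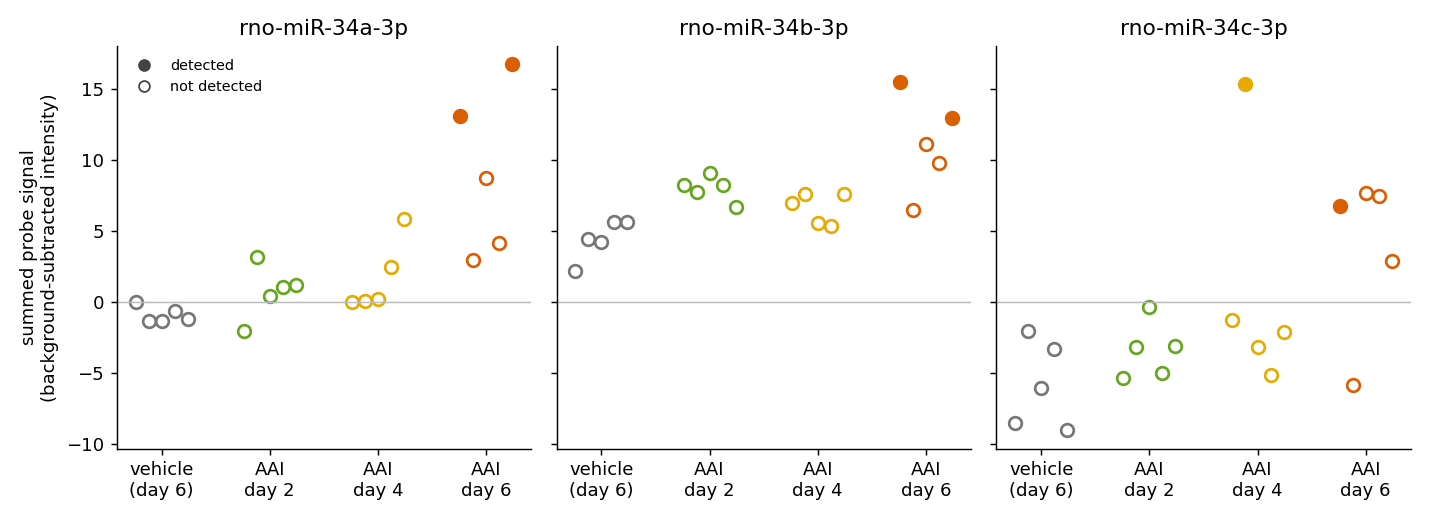
Summed background-subtracted probe signal of each miR-34 3p arm (y axis, intensity in arbitrary units) in each kidney by group (x axis). Filled points are arrays on which the arm was detected, all of them at AAI day 6 except 1 at day 4, and the highest values of miR-34a-3p and miR-34b-3p are on day 6 arrays 1 and 5.

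The signal behind the chromosome 8 arms was low. In AAI day 6 kidneys 79 of 100 miR-34b-5p spots and 87 of 100 miR-34c-5p spots were well above background, against 33 and 28 of 100 in vehicle kidneys, while all 100 miR-34a-5p spots were in both groups. In vehicle the brighter miR-34b-5p probe had a median signal of 11.0 and the dimmer one 5.49, against 39.6 and 23.6 for the miR-34a-5p probes. The median variation between spots of 1 array was 16.5% and 37.5% for the miR-34b-5p probes and 8.06% and 8.41% for the miR-34a-5p probes. None of the 2000 spots of the 5 arms was saturated (0), and 64 carried an outlier flag.

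Both probes of an arm gave like changes. At AAI day 6 against vehicle they were 2.872 and 2.999 on the log2 scale for miR-34a-5p, 1.08 and 1.15 for miR-34b-5p, and 1.19 and 1.46 for miR-34c-5p. A background correction by normexp, which keeps dim signals from falling near 0 by adding an offset of 50, gave 1.78 for miR-34a-5p, 0.22 for miR-34c-5p and 0.16 for miR-34b-5p, with miR-34a-5p alone called (limma adjusted p = 6.94e-05, against 0.450 and 0.693).

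The scanning software's own total signal per miRNA gave another picture of the chromosome 8 arms. Such totals were not particular to these arms. Over all miRNAs, 1231 of 5551 detected miRNA and array pairs (22.2%) had a total that differed from the sum of probe totals by over 50%. For miR-34a-5p it equalled the sum of its probe totals on 20 of 20 arrays (within 1%). For miR-34b-5p it did so on all 5 AAI day 6 arrays and on 0 of 5 vehicle arrays, where it was 4.37 to 5.15 times the probe sum. On those 5 vehicle arrays, and on 5 of the day 2 and day 4 arrays, the miR-34b-5p total equalled the total of miR-34a-5p plus the brighter miR-34b-5p probe (within 0.1%). On vehicle array 1, for example, the total of 35.9 was 30.2 plus 5.67. The miR-34c-5p total in turn equalled the miR-34b-5p total plus the brighter miR-34c-5p probe on all 5 vehicle arrays. Taken as levels, these totals put day 6 below vehicle by -0.90 for miR-34b-5p and -0.94 for miR-34c-5p, which limma did not call (adjusted p = 0.425 and 0.432), and left miR-34a-5p at 3.14.

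Beyond the members, 2 miRNAs on the array carry the 5p seed, miR-449a-5p and miR-449c-5p, which mark multiciliated epithelium. Neither was detected on any of the 20 arrays (0 each), with summed signals of at most 1.09.

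Other miRNAs linked to p53 by transcription or processing come from a list of 11, of which 10 were found on the array and 9 tested. At AAI day 6 against vehicle 0 of 9 were called higher and 5 lower in limma, where 18.7% of all tested miRNAs were called lower. The 5 were miR-192-3p (log2 change -0.81), miR-194-5p (-0.63) and miR-192-5p (-0.56), which kidney tubules express at high level and which arise from shared clusters, miR-107-3p (-0.33), which lies in a PANK gene that p53 is reported to activate in human cells, and miR-16-5p (-0.26), whose processing p53 is reported to promote in human cells. The list's median change was -0.26, against -0.11 for all 262. Without scaling between arrays none of the 9 was called in either direction, the medians were 0.11 and 0.26, and miR-107-3p and miR-16-5p had positive changes (0.04 and 0.11). With slide as a fixed block 4 of the 5 remained called, and miR-192-3p did not (limma adjusted p = 0.0874). miR-200c-3p (0.12), miR-141-3p (0.15), miR-143-3p (-0.07) and miR-145-5p (-0.16) did not pass at day 6 (limma adjusted p 0.154 or higher). From day 2 to day 6, 1 of 9 was called lower, miR-192-3p (-0.55, background 7.63%), and in the other comparisons none of the 9 was called.

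Marker miRNAs bear on the tissue. All 7 kidney-enriched miRNAs of a marker list were detected on all 20 arrays, and their summed level was 3044 to 3794% of the 75th percentile signal at AAI day 6, against 3731 to 4077% in vehicle. At day 6 against vehicle 4 of the 7 were called lower in limma, miR-192-5p and miR-194-5p as above, miR-204-5p (-0.42, adjusted p = 0.00365) and miR-196a-5p (-0.31, adjusted p = 0.00759), and the other 3 were not called. Of the 4 leukocyte markers on the array none was called at day 6, and their summed level was 136 to 206%, against 171 to 199%. miR-451-5p, the defining red cell miRNA, fell by 2.73 on the log2 scale (limma adjusted p = 1.60e-05). The red cell list summed to 5.55 to 20.2% at day 6, against 40.7 to 134% in vehicle. Of the muscle list, the defining miR-1-3p and miR-208a-3p were detected on no array (0), miR-133a-3p on 3 and miR-206-3p on 5 of 20, and the list summed to at most 4.57% in any kidney. Brain markers summed to 9.81 to 18.0% at day 6 against 8.12 to 16.8% in vehicle, and the liver marker to 0 to 13.5% against 0 to 4.83%. In whole kidney, fewer cells of a type and less RNA per cell cannot be told apart, and the part of these shifts in the miR-34 values was not tested.

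Outside the family, the 5 miRNAs whose levels ran most like each member's over the 20 kidneys included miR-21-5p, miR-18a-5p and miR-146b-5p for all 3 arms. For miR-34a-5p they were miR-21-5p (Pearson r = 0.874), miR-21-3p (0.805), miR-18a-5p (0.764), miR-132-3p (0.689) and miR-146b-5p (0.685). For miR-34b-5p they were miR-18a-5p (0.913), miR-21-5p (0.853), miR-322-5p (0.852), miR-20b-5p (0.838) and miR-146b-5p (0.817). For miR-34c-5p they were miR-18a-5p (0.914), miR-21-5p (0.910), miR-146b-5p (0.868), miR-132-3p (0.827) and miR-322-5p (0.789). These values describe 20 points that share 4 groups and 3 slides and carry no test. For comparison, miR-34c-5p had r = 0.970 with miR-34b-5p and 0.895 with miR-34a-5p, while miR-34a-5p and miR-34b-5p had r = 0.825, lower than that of miR-21-5p with either. As deviations from group means, miR-34c-5p had r = 0.797 to 0.905 with its 5 outside miRNAs, against 0.774 with miR-34a-5p. The highest was with miR-18a-5p, a member of the miR-17 cluster. miR-34b-5p had 0.705 to 0.890 with its 5, against 0.629 with miR-34a-5p. miR-34a-5p had 0.465 to 0.688 with its 5, against 0.774 with miR-34c-5p and 0.629 with miR-34b-5p. Correlation of the chromosome 8 arms with miR-34a-5p is thus not particular to the family.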

How the data were processed

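Kidney RNA was labelled with Cy3 and hybridised to 1-colour Agilent miRNA arrays, per the labels. Feature Extraction (version 10.7.1.1, per the file headers) produced the deposited intensity values, which are background-subtracted and unscaled between arrays, and marks for detection and outliers of 0 or 1. Log2 values in the deposited series table (column medians -3.32 to -3.01) have no stated scaling or centring and served only as an alternative. Their column means were nearly equal (0.4183 to 0.4187), and single values recurred between arrays, such as 5.59 for miR-34a-5p on vehicle arrays 1 and 2. The columns thus appear scaled to each other. Unflagged spots were averaged per probe and summed per miRNA, divided by the 75th percentile over the 231 miRNAs detected on all 20 arrays, floored at 0.00640 (12 of 5240 values) and log2-transformed. miRNAs detected on all 5 arrays of a group were tested (262) with limma 3.58.1 in R 4.3.3, all 4 groups in 1 fit. On simulated data 27 of 30 changes of 1 log2 unit and 29 of 30 of 2 units were called in a day 6 against vehicle comparison of 262 miRNAs. The simulation used independent noise per array, no slide effect and randomly picked miRNAs. It checks the fit and does not bear on the miR-34 calls. Differences between arms used exact permutation tests and correlations 100000 permutations within groups (scipy 1.17.1). The number of arrays limits the precision. Named miRNAs were the members, miR-34a-3p, other carriers of the seed, the p53-linked and marker lists, and the 5 miRNAs most correlated with each member. Members, lists and tests were chosen with earlier results of these data known. Replicate numbers did not pair kidneys (mean correlation of same-numbered deviations -0.03). Alternatives covered background correction, scaling, probe summary, detection filter, slide as a block, replicate block, variance model and left-out arrays. Added after seeing the data were settings without AAI day 4 array 2. miR-15a-5p was not analysed here.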

Additional observations from a re-analysis of the deposited data

Results flagged for a closer look

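The change of miR-34a-5p against vehicle was larger at AAI day 6 than at day 2 by 2.12 on the log2 scale and larger than at day 4 by 1.83, each past the threshold in limma's test of the difference. The changes of miR-34c-5p and miR-34b-5p were larger at day 6 than at day 2 by 1.11 and 0.99. The 3p arms, which enter no comparison of tested miRNAs, were marked as detected in AAI day 6 kidneys and in no vehicle kidney: miR-34a-3p and miR-34b-3p on 2 of 5 arrays and miR-34c-3p on 1 of 5. Where a 3p arm was marked, the software's total was 23.5 to 195 times the sum of its probe totals. Day 6 arrays 1 and 5, which held these marks, had 304 and 291 detected miRNAs. The day 6 group ranged from 250 to 308, against 258 to 269 in vehicle. No level of a 5p arm, and no difference between arms, stood apart from the other 4 kidneys of its group by Dixon's test in any of 24 group and measure combinations, where chance alone marks about 1 in 20.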

How the results depend on the processing

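For single arms 405 alternative values kept direction and side of the threshold, 49 lost and 5 gained a call and 57 turned sign. For counts of called arms, differences between arms and correlations 307 values kept direction and side of the threshold (counts within 1.5 times), 29 counts moved further, 19 values lost and 2 gained a call and 4 turned sign. The cause of the changes below was not tested. At AAI day 6 against vehicle, 3 arms were called; 1 was called with normexp, the software's total signal, the deposited series table or slide as a random block, and 0 with slide as a fixed block, also without AAI day 4 array 2. Quantile normalization gave 2, where miR-34b-5p lost its call (limma adjusted p = 0.0550), and the filter of detection on at least 1 array gave 4. The fourth was miR-34b-3p, which passed that filter only through the 2 day 6 arrays that detected it, so its call is not read as a result. Day 6 against day 2 gave 1 call instead of 3 under the first 4 of these settings, no scaling, median scaling or quantile normalization, 2 with the 75th percentile over all miRNAs or only the 2 groups compared, and 0 with the fixed block, with or without that array. Leaving out 1 array gave 1 to 3 calls there, and 0 to 3 for day 6 against day 4, and 0 to 1 for day 4 against vehicle. Day 6 against day 4 gave 0 calls in place of 1 with no scaling, either slide block, within slides, or only the 2 groups compared. Signs turned, none of them past the limma threshold, as follows. With the software's total signal, miR-34b-5p had log2 changes of -0.30, -0.73 and -0.90 at day 2, 4 and 6 against vehicle, -0.44 and -0.60 at day 4 and 6 against day 2 and -0.17 at day 6 against day 4, and miR-34c-5p -0.42, -0.84, -0.94, -0.42, -0.52 and -0.10 in that order. With normexp, miR-34b-5p had -0.15 and -0.055 and miR-34c-5p -0.14 and -0.031 at day 2 and day 4 against vehicle. With the series table, they had -0.76 and -0.50 at day 4 against vehicle and -0.93 and -0.79 at day 4 against day 2. In that table AAI day 4 array 2 stood at -2.52 and -1.70 for these arms, and the rest of its group at 2.78 or higher. With slide as a fixed block or within slides, miR-34b-5p had -0.0041, -0.57 and -0.56, and miR-34c-5p -0.0042, -0.49 and -0.49, at day 2 and day 4 against vehicle and day 4 against day 2, where miR-34a-5p had -0.21. Without AAI day 4 array 2 the fixed block gave -0.0041, -0.14 and -0.13, then -0.0042, -0.37 and -0.37, and for miR-34a-5p -0.12 at day 4 against vehicle and -0.79 at day 4 against day 2. The random block gave miR-34b-5p -0.079 at day 4 against vehicle and -0.27 against day 2, and miR-34c-5p -0.21 against day 2. Quantile normalization gave miR-34b-5p -0.063 at day 4 against vehicle and -0.11 against day 2, and miR-34c-5p -0.050 at day 4 against day 2, for which median scaling gave miR-34b-5p -0.031. Leaving out 1 array moved miR-34b-5p between -0.024 and 0.38 at day 4 against vehicle. For day 4 against day 2 the same moved it between -0.14 and 0.27, and miR-34c-5p between -0.11 and 0.23.

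The widening of miR-34a-5p minus miR-34c-5p missed the threshold in the series table at day 2 (0.46) and day 4 (1.42) and with normexp at day 4 (0.56), and that of miR-34a-5p minus miR-34b-5p with normexp (0.59) and the series table (1.68) at day 4. miR-34b-5p minus miR-34c-5p turned to 0.12, 0.11 and 0.039 at day 2, 4 and 6 with the software's total, passed at -0.058 with normexp at day 6, and lay between -0.22 and -0.11 when 1 array was left out. With the replicate block the values were 0.63, 0.86 and 1.64 for miR-34a-5p minus miR-34c-5p and 0.68, 0.96 and 1.82 for miR-34a-5p minus miR-34b-5p, with adjusted exact permutation p = 0.0938, a test whose smallest p is 0.0625. No value could pass there, so these losses, which the tally of lost calls above includes, were fixed in advance. In limma the replicate block left 3, 3 and 1 arms called at day 6 against vehicle, day 2 and day 4. The correlation of miR-34a-5p with miR-34c-5p was 0.023 with normexp, 0.104 with the software's total and 0.422 in the series table, and that with miR-34b-5p -0.050, 0.087 and 0.335, 0.600 with mean log2 probe signals, 0.547 with group and slide means removed and 0.433 without the 2 farthest arrays. Dim spots limit the chromosome 8 arms: in vehicle kidneys 33 and 28 of 100 spots of miR-34b-5p and miR-34c-5p were well above background.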
